A study of Mus musculus with 16 samples.

Results

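Hepatokines are proteins that the liver releases into the blood and that act on other organs or on the liver itself. Of the 18193 genes measured here with 1 probe set each, 9 were taken as hepatokines and secreted regulators by their gene symbol alone: Inhba, Inhbc, Inhbe, Fgf21, Angptl4, Angptl6, Lect2, Ahsg and Fetub. All 9 were on the array, with 11 probe sets between them, since Inhba and Angptl4 have a second probe set each. The RNA came from 16 pieces of liver of male C3H/HeJ mice, 1 Affymetrix GeneChip array per sample, in 4 groups. The first was 7 tumours that carry mutated Ctnnb1, which encodes beta-catenin, from mice labelled as given phenobarbital (PB), a barbiturate that promotes liver tumours. Their reference was 3 pieces of control liver under the same PB treatment, here called PB controls. The third group was 3 tumours with a mutation in Ha-ras, from mice labelled as given plain drinking water, and its reference was 3 pieces of control liver without PB, here called untreated controls. The series design states that all mice had been injected once with the carcinogen diethylnitrosamine (DEN), at 10 or 90 µg per g of body weight and at 2 or 6 weeks of age. It places 2 weeks without treatment between DEN and a diet with 0.05% PB or without it, which lasted 28 to 36 weeks. The sample labels instead give 27 weeks of treatment by drinking water, and the treatment protocol gives 28 days, so the length and route of the PB course are not settled. DEN dose and age are not given per sample, and the labels do not say whether samples of a group came from separate animals, so that p-values measure the spread between samples, which may be technical in part. Mutation and PB go together in this design: a tumour differs from its own control in tissue, whereas the tumour types differ from each other in mutation and treatment at once.

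The 9 genes belong to several families with different actions. Inhba, Inhbc and Inhbe encode beta subunits of the activins and inhibins, members of the TGF-beta superfamily that signal through activin receptors and SMAD proteins; follistatin, the product of Fst, binds activins and blocks them. FGF21 is an endocrine fibroblast growth factor that acts through FGF receptors together with the co-receptor beta-Klotho, the product of Klb, and its gene is known to be switched on by fasting through PPARalpha and by cell stress through ATF4. ANGPTL4 inhibits lipoprotein lipase, and ANGPTL6 is a circulating angiopoietin-like protein. LECT2 is a hepatocyte product known in mouse liver as a target of beta-catenin. Fetuin-A, the product of Ahsg, binds calcium phosphate in the blood and inhibits the insulin receptor, and fetuin-B, the product of Fetub, inhibits the protease ovastacin.

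The start regions of 4 of these genes are shown because they differ in motifs of the factors named above. Lect2 is the hepatokine gene whose level separated the tumour types most, Fgf21 and Inhbe hold the same 8-letter stress motif, and Inhbc is the neighbour of Inhbe on chromosome 10. Each run covers 250 bases before and 50 bases after the annotated start of the gene on its own strand, taken from RefSeq (GRCm38.p6), and capitals mark a match to either of the first pair of motifs below. The window of Lect2 is chr13:56548489-56548788 on the minus strand.
Lect2: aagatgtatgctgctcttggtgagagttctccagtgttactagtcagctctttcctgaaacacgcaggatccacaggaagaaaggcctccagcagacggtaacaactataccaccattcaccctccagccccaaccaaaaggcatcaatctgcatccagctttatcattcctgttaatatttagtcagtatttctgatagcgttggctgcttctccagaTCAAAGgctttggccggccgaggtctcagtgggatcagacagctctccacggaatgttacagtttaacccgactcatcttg
The window of Fgf21 is chr7:45615441-45615740 on the minus strand.
Fgf21: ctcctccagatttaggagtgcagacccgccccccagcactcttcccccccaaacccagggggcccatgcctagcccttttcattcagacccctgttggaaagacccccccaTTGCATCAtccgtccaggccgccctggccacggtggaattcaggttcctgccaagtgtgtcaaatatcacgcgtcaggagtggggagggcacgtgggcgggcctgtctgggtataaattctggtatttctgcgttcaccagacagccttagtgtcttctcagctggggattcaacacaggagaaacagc
The window of Inhbe is chr10:127351799-127352098 on the minus strand.
Inhbe: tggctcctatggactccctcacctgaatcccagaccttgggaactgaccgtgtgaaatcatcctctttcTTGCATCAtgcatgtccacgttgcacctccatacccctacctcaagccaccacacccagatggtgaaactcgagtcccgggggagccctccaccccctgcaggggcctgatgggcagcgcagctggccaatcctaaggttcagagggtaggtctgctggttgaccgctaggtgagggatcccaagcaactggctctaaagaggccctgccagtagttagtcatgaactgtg
The window of Inhbc is chr10:127370499-127370798 on the minus strand.
Inhbc: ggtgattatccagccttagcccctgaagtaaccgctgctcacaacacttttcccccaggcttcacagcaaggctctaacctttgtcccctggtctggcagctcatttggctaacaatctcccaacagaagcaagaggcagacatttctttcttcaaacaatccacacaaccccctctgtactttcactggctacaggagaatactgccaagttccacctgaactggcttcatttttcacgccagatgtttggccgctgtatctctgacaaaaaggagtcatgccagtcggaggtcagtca
Windows were found for 8 of the 9 genes, 9 windows in all since Fetub has 2 annotated starts; Angptl4 is named only. On both strands, 4 motifs were searched. The TCF/LEF motif CTTTGA, read by the factors that carry beta-catenin to DNA, was in 5257 of the 32851 windows of all genes and in those of Lect2 (31 bases before the start) and Inhba (237 bases before), both on the opposite strand as TCAAAG. The ATF4 composite motif TGATGNAA was in 3.97% of all windows and in those of Fgf21 (139 bases before the start) and Inhbe (181 bases before), both on the opposite strand as TTGCATCA. The nuclear receptor half-site AGGTCA, in 16.3% of all windows, was in that of Inhbc at base 41 after the start, and the STAT motif TTCNNNGAA, in 8.30% of all windows, was in none of the 9. No match overlapped that of another motif, and a match is a description of the letters only.

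The deposited values are log2 RMA intensities, for which the median gene lay at 6.21 and the lower quartile of genes at 4.43, so that low values include background. The number of arrays limits the precision. Array medians lay between 5.03 and 5.10. One array stood apart: PB control 6 had a gap of 2.70 (log2) between the Gapdh control probe sets for the 3′ and the 5′ end, a measure that widens with RNA degradation, against −0.15 to 0.32 on the other 15 arrays, and results on the hepatokine genes that change a call without it are also given without it, as are counts of listed genes that move by over 1.5 times. Of the lists of marker genes, hepatocyte markers were at high levels in all 4 groups (log2 of the summed level 16.88 to 17.02 in Ctnnb1 tumours, 16.91 to 17.12 in PB controls, 17.13 to 17.16 in Ha-ras tumours and 17.08 to 17.12 in untreated controls). Their mean log2 level was 13.11 to 13.45 in Ctnnb1 tumours, below every array of the other groups. It was 13.46 to 13.70 in PB controls, 13.61 to 13.71 in Ha-ras tumours and 13.66 to 13.67 in untreated controls. Of 8 hepatocyte markers 2 were lower in Ctnnb1 tumours against PB controls and 3 against Ha-ras tumours. None was called in Ha-ras tumours against untreated controls (1 higher without PB control 6). Of 14 stellate cell and fibroblast markers, 8 fell in Ctnnb1 tumours against PB controls and 7 in Ha-ras tumours against untreated controls, with none higher. Their summed level was 11.52 to 12.66 in Ctnnb1 tumours against 12.74 to 13.19 in PB controls, and 11.83 to 12.63 in Ha-ras tumours against 12.95 to 13.11 in untreated controls. Of 14 Kupffer cell and macrophage markers, 3 fell in Ctnnb1 tumours (summed level 12.42 to 13.28, against 13.14 to 13.72 in PB controls) and 6 in Ha-ras tumours (11.46 to 13.41, against 12.87 to 13.57 in untreated controls). Of 13 endothelial markers, 1 rose and 2 fell in Ctnnb1 tumours (summed level 10.81 to 11.99, against 12.16 to 12.41 in PB controls) and 1 rose in Ha-ras tumours (11.44 to 12.31, against 12.39 to 12.54 in untreated controls). Without PB control 6, 1 rose and 1 fell in Ctnnb1 tumours and 3 rose in Ha-ras tumours. The summed level is led by the brightest genes, and the mean log2 level of the 13 endothelial markers overlapped in both comparisons. It was 6.84 to 7.83 in Ctnnb1 tumours against 7.62 to 8.02 in PB controls. In Ha-ras tumours it was 7.44 to 8.17, against 7.76 to 7.93 in untreated controls. Of 5 cholangiocyte markers 1 fell in Ctnnb1 tumours (none without PB control 6), and none of 10 lymphocyte or 6 neutrophil markers was called in either comparison. The mean log2 level of the 5 cholangiocyte markers was 4.24 to 4.55 in Ctnnb1 tumours and 4.45 to 4.85 in PB controls. These levels are near the lower quartile of genes, where values include background. No list had its defining markers at 0, since RMA values have no true zero. The part of these other cell types in the values below was not tested, and in bulk tissue fewer cells of a type and less RNA per cell cannot be told apart.

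A gene was called when its limma adjusted p (Benjamini-Hochberg over all 18193 genes) was below 0.05. In Ctnnb1 tumours against PB controls 4 of the 9 hepatokine genes were called, 3 higher and 1 lower, where 12.0% of all genes were called (6.07% higher and 5.97% lower). In Ha-ras tumours against untreated controls 4 of 9 were also called, 2 higher and 2 lower, with 13.5% of all genes called (7.21% higher and 6.33% lower). All 9 lay above the median gene in mean level, with Angptl6 lowest at 6.99 against 6.21. When genes below that median were left out, 21.5% of the remaining genes were called in each tumour comparison. Inhbc then joined the genes called in Ha-ras tumours. The change in Ctnnb1 tumours differed from the change in Ha-ras tumours for 2 of 9 genes, Lect2 and Inhbe, with 5.43% of all genes called in this test of the difference (2.14% higher and 3.29% lower). In PB controls against untreated controls 1 of 9 was called, and it was lower, where 0.214% of all genes were called (0.132% higher and 0.0824% lower). Between the tumour types directly, Ctnnb1 against Ha-ras, 3 of 9 were called, 1 higher and 2 lower, with 15.1% of all genes called (7.21% higher and 7.90% lower). The median absolute log2 change of the 9 genes was 0.37 in Ctnnb1 tumours and 0.92 in Ha-ras tumours, beside 0.17 and 0.19 over all genes. Arrays of Ha-ras tumours and untreated controls did not overlap for 8 of the 9 genes, Fetub being the exception, where 34.8% of all genes were without overlap. The same was so for 3 of the 9 in Ctnnb1 tumours against PB controls (12.6% of all genes), 3 in PB controls against untreated controls (18.8%) and 3 in Ctnnb1 against Ha-ras tumours (16.2%). These comparisons share control or tumour arrays, so their counts are not independent. Fetub, Angptl4 and Inhbc were called in none of the 5 comparisons.

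**Figure D1:**
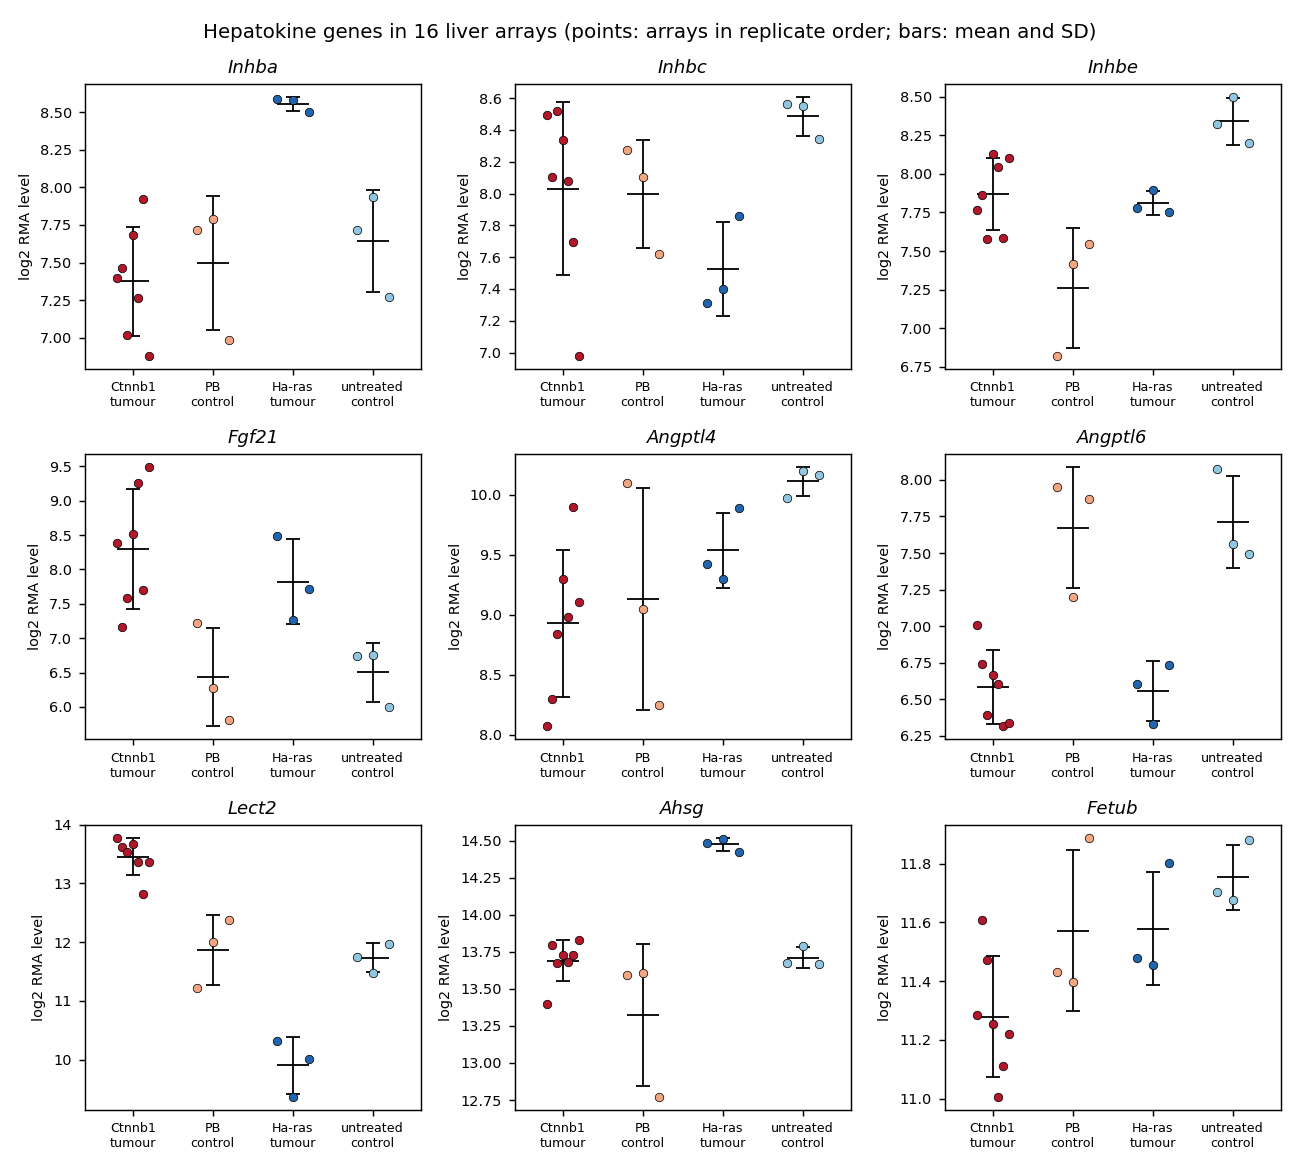
Level of each of the 9 hepatokine genes (log2 RMA, 1 panel per gene, each with its own scale) on the 16 arrays, with points for arrays and bars for the mean and SD of a group. Lect2 lies between 12.82 and 13.78 in Ctnnb1 tumours and between 9.36 and 10.32 in Ha-ras tumours, with both control groups between 11.22 and 12.38.

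**Figure D2:**
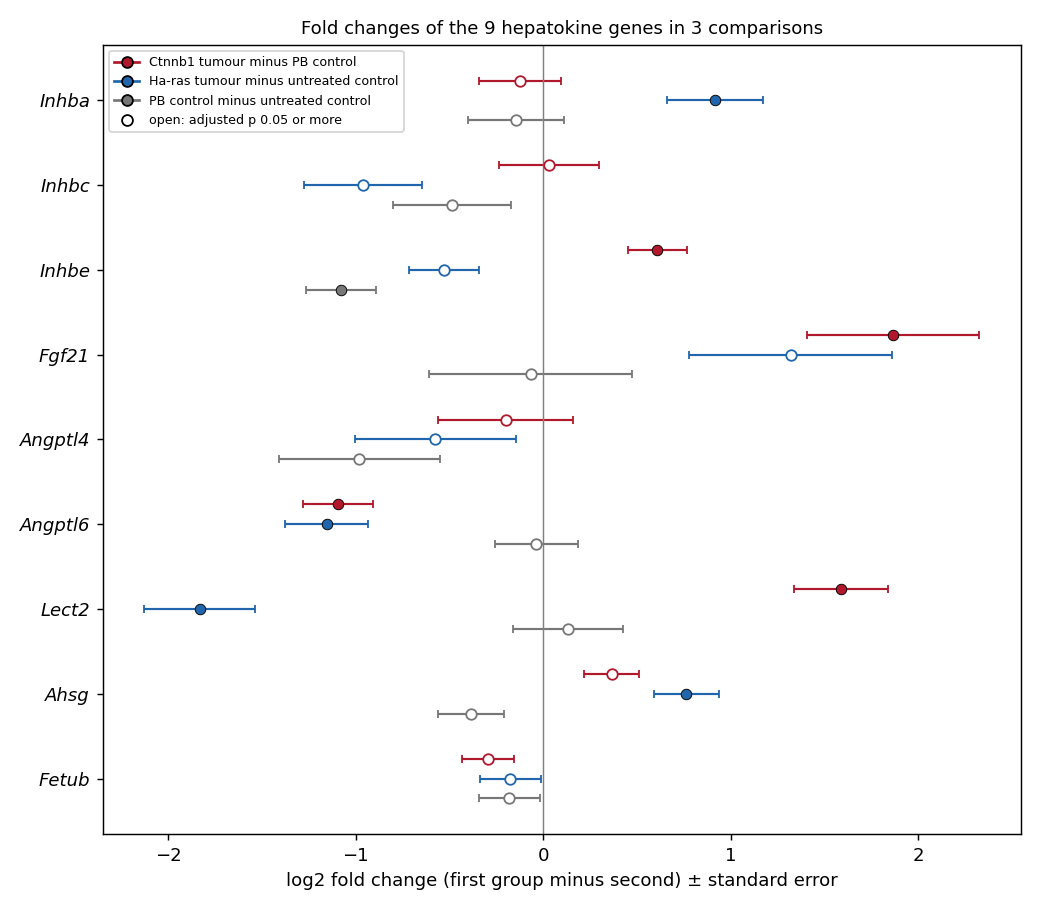
Log2 fold change with its standard error for the 9 genes in Ctnnb1 tumours minus PB controls, Ha-ras tumours minus untreated controls and PB controls minus untreated controls, where filled points are called at an adjusted p below 0.05. Angptl6 is filled and below 0 in both tumour comparisons, and Lect2 is filled above 0 in Ctnnb1 tumours and below 0 in Ha-ras tumours.

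Among the activin subunits, Inhba, Inhbc and Inhbe each showed a different pattern over the groups. Inhba encodes the subunit of activin A, a factor that restrains hepatocyte growth in rodents. Its level in Ha-ras tumours was 8.59, 8.58 and 8.50, against 7.72, 7.93 and 7.27 in untreated controls. All 3 Ha-ras tumours were above every other array of the study, of which the highest was untreated control 2 at 7.93. Inhba rose in Ha-ras tumours by 0.92 ± 0.26 (log2 fold change ± standard error, 1.89-fold, adjusted p = 0.0257). In Ctnnb1 tumours it ranged over 6.88, a median of 7.39 and 7.92, against 7.72, 7.79 and 6.98 in PB controls, so that these groups overlapped (−0.12 ± 0.22, adjusted p = 0.768). Between the tumour types it was lower in Ctnnb1 tumours by a log2 difference of −1.18 ± 0.22 (adjusted p = 0.00124), while the changes against the own controls did not differ at the threshold (−1.04 ± 0.34, adjusted p = 0.0924). Without PB control 6, the lowest PB control for Inhba, that difference was −1.30 with an adjusted p of 0.0302. The call in Ha-ras tumours was lost without any 1 of 5 of the 6 arrays compared, with adjusted p between 0.0507 and 0.125, although the fold change stayed between 0.73 and 0.96 on the log2 scale. A second probe set of Inhba lay between 3.90 and 4.40 on all arrays, below the lower quartile of genes, and did not pass in any comparison (Ha-ras tumours against untreated controls −0.19 ± 0.12, adjusted p = 0.394). The mean of both probe sets gave a change of 0.36 in Ha-ras tumours, with an adjusted p of 0.140.

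Inhbe encodes the subunit of activin E, which is made mainly in hepatocytes. Its level was 7.58 to 8.13 in Ctnnb1 tumours with a median of 7.87, against 6.82, 7.42 and 7.55 in PB controls. It was 7.78, 7.90 and 7.75 in Ha-ras tumours, against 8.32, 8.50 and 8.20 in untreated controls. The untreated controls were the highest group without overlap, the PB controls the lowest without overlap, and both tumour types lay between them. Inhbe was lower in PB controls than in untreated controls by −1.08 ± 0.19 (2.11-fold, adjusted p = 0.0315), a call made for 39 genes in all, of which 15 were lower. It rose in Ctnnb1 tumours against PB controls by 0.61 ± 0.16 (1.52-fold, adjusted p = 0.0205), and in Ha-ras tumours against untreated controls its change was −0.53 ± 0.19 (adjusted p = 0.0735). The difference between these changes was 1.14 ± 0.24 (adjusted p = 0.0112). The direct difference between Ctnnb1 and Ha-ras tumours was 0.06 ± 0.16 (adjusted p = 0.873), so the tumour levels were close and the controls lay apart. These comparisons share the control arrays: a low PB control lowers the PB effect and raises the Ctnnb1 effect at once. PB control 4 was the lowest of the group at 6.82, and without it the change was 0.39 in Ctnnb1 tumours (adjusted p = 0.119) and −0.86 in PB controls (adjusted p = 0.0778), neither called. The PB call was also lost without any 1 of the 3 untreated controls (adjusted p = 0.0944 to 0.105). The difference between the tumour effects kept its call without any single array (adjusted p = 0.00652 to 0.0356).

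Inhbc, the subunit of activin C and the direct neighbour of Inhbe on chromosome 10, did not follow that order. It was 6.98 to 8.52 in Ctnnb1 tumours with a median of 8.10, against 8.27, 8.10 and 7.62 in PB controls. It was 7.31, 7.40 and 7.86 in Ha-ras tumours, against 8.57, 8.55 and 8.34 in untreated controls. The Ha-ras tumours all lay below the untreated controls, and the Ctnnb1 tumours overlapped with their controls. The change in Ha-ras tumours was −0.96 ± 0.32, with an adjusted p of 0.0555 that missed the threshold. It was called in 9 of 27 settings at changes of −1.13 to −0.96, among them a fit without PB control 6 (adjusted p = 0.0468), one without Ha-ras tumour 3 (−1.13, adjusted p = 0.0485) and one with dim genes left out (adjusted p = 0.0417). Ctnnb1 tumour 7, at 6.98, was the lowest array of the study. Without it the spread estimated over all groups was smaller, and Inhbc was called in Ha-ras tumours (the same fold change, adjusted p = 0.00706) and in the difference between the tumour effects (1.17, adjusted p = 0.0246). In PB controls against untreated controls the arrays did not overlap either, at −0.49 ± 0.32 (adjusted p = 0.521).

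Around these subunits, Fst, the gene of the activin antagonist follistatin, rose in Ha-ras tumours. It averaged 9.46 ± 0.93 in Ha-ras tumours against 5.93 ± 0.43 in untreated controls (mean ± SD, n = 3 each), and 6.68 ± 0.51 in Ctnnb1 tumours (n = 7) against 7.21 ± 0.48 in PB controls (n = 3). It rose in Ha-ras tumours by 3.53 ± 0.42 (adjusted p = 4.15e-05), was at −0.53 ± 0.36 in Ctnnb1 tumours (adjusted p = 0.374), and the difference between these changes was −4.06 ± 0.56 (adjusted p = 0.000344). Of 9 measured genes listed as activin antagonists and binders, Fst was the only one higher in Ha-ras tumours, with none lower (2 higher without PB control 6). In Ctnnb1 tumours 2 of the 9 fell: Tgfbr3, the inhibin co-receptor betaglycan (−1.32 ± 0.27, adjusted p = 0.00523), and Pcsk5 (−0.79 ± 0.10, adjusted p = 0.000145). Pcsk5 encodes a proprotein convertase and is itself neither an antagonist nor a binder of activin. The antagonist Fstl3 was at 0.14 ± 0.14 in Ha-ras tumours and −0.08 ± 0.12 in Ctnnb1 tumours, neither called. Of 16 receptors and SMAD genes, 3 rose and none fell in Ha-ras tumours, among them Skil, a feedback inhibitor of SMAD signalling (0.93 ± 0.17, adjusted p = 0.0015), and Smad3, a transducer of activin signals (0.77 ± 0.16, adjusted p = 0.00417, and 0.29 with an adjusted p of 0.0685 for the mean of its probe sets). In Ctnnb1 tumours the receptor gene Acvr1 rose (0.62 ± 0.18, adjusted p = 0.0329) and 3 of the 16 fell: the pseudoreceptor gene Bambi (−0.92 ± 0.13, adjusted p = 0.000483) and the receptor genes Acvr2b (−0.66 ± 0.19, adjusted p = 0.0314) and Acvr2a (−0.42 ± 0.13, adjusted p = 0.0452). Without PB control 6 Bambi was the only one of the 16 called there, since Acvr2a, Acvr2b and Acvr1 then had adjusted p of 0.198, 0.195 and 0.222. The type I receptors Acvr1b and Acvr1c did not pass in either tumour type against its control, with Acvr1b at 0.57 ± 0.20 in Ha-ras tumours (adjusted p = 0.0713). Of the 10 measured ligands of the family, including the 3 hepatokine genes, Inhbe rose and Bmp2 fell in Ctnnb1 tumours, and in Ha-ras tumours Inhba rose while Bmp2 and Lefty1 fell. Bmp2, a bone morphogenetic protein, fell in both, by −1.76 ± 0.37 in Ctnnb1 tumours (adjusted p = 0.0061) and by −1.67 ± 0.44 in Ha-ras tumours (adjusted p = 0.0171). Inhbb, the subunit of activin B, was at −0.12 ± 0.16 in Ctnnb1 tumours and 0.44 ± 0.19 in Ha-ras tumours, neither called. The probe sets of Inhbb disagreed: the one with the highest variance gave 3.10 in Ha-ras tumours (adjusted p = 0.000251) and a difference between the tumour effects of −2.86 (adjusted p = 0.00926), both called. The alpha subunit Inha was near the low end of the scale at a mean of 4.07 in Ctnnb1 tumours and 4.15 in Ha-ras tumours.

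**Figure D3:**
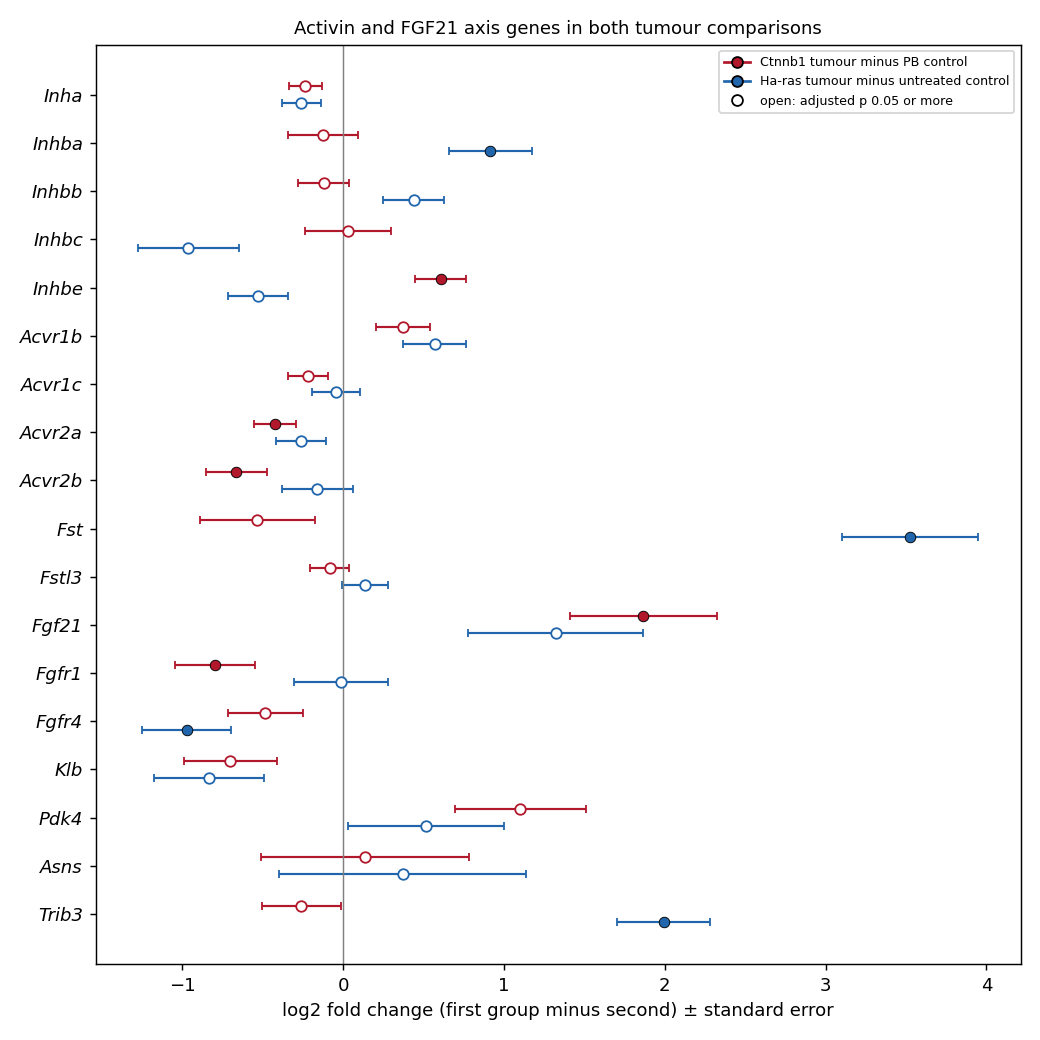
Log2 fold change with its standard error of activin subunits, receptors and antagonists, and of Fgf21, its receptors and genes known to respond to PPARalpha (Pdk4) or to ATF4 (Asns, Trib3), in Ctnnb1 tumours minus PB controls and Ha-ras tumours minus untreated controls, where filled points are called. Fst stands at 3.53 in Ha-ras tumours and −0.53 in Ctnnb1 tumours, and Fgf21 is above 0 in both.

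Fgf21 was high in both tumour types. Its level in Ctnnb1 tumours ran over 7.16, a median of 8.39 and 9.49, against 7.22, 6.27 and 5.81 in PB controls. In Ha-ras tumours it was 8.49, 7.27 and 7.72, against 6.74, 6.76 and 6.00 in untreated controls. Only Ctnnb1 tumour 2, at 7.16, lay below a control of its own treatment, PB control 4, and the Ha-ras tumours lay above all untreated controls. The range over the Ctnnb1 tumours was the widest of the 9 genes in that group. Fgf21 rose in Ctnnb1 tumours by 1.87 ± 0.46 (3.64-fold, adjusted p = 0.0155). In Ha-ras tumours its change was 1.32 ± 0.54 (adjusted p = 0.129), and the changes did not differ at the threshold (0.54 ± 0.71, adjusted p = 0.755). PB control 6, with the wide Gapdh gap, was the lowest PB control, and without it the change in Ctnnb1 tumours was 1.55 with an adjusted p of 0.0936, above the threshold. In PB controls against untreated controls it was −0.07 ± 0.54 (adjusted p = 0.97).

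Of the 13 measured genes of FGF21 receptors and the endocrine FGF axis, none rose and 2 fell in Ctnnb1 tumours. Fgfr2 fell there by −2.30 ± 0.21 (adjusted p = 2.9e-05) and rose in Ha-ras tumours by 0.99 ± 0.25 (adjusted p = 0.016). Fgfr1, the receptor that FGF21 uses with beta-Klotho in fat tissue, lay at 4.33 ± 0.09 in Ctnnb1 tumours (SD, n = 7) against 5.13 ± 0.58 in PB controls (n = 3), below the median gene. Its fall of −0.79 ± 0.25 (adjusted p = 0.0486) was not called without PB control 6 (adjusted p = 0.307). In Ha-ras tumours 1 of the 13 rose and 2 fell: Fgfr4, the main FGF receptor of hepatocytes (−0.97 ± 0.28, adjusted p = 0.0283), and Fgf1, a ligand of all FGF receptors (−1.59 ± 0.23, adjusted p = 0.000249). Klb was below its controls in both tumour types without a call, at −0.70 ± 0.29 in Ctnnb1 tumours (adjusted p = 0.127) and −0.83 ± 0.34 in Ha-ras tumours (adjusted p = 0.13). Of 19 genes of the integrated stress response, the route through ATF4 to Fgf21, 2 rose and none fell in Ctnnb1 tumours (1 rose without PB control 6), and 4 rose and 1 fell in Ha-ras tumours (6 and 2 without PB control 6). Psat1, an enzyme of serine synthesis, rose in both, by 1.09 ± 0.29 in Ctnnb1 tumours (adjusted p = 0.0241) and 3.45 ± 0.35 in Ha-ras tumours (adjusted p = 7.5e-06). Trib3, a pseudokinase induced by ATF4, rose in Ha-ras tumours by 1.99 ± 0.29 (adjusted p = 0.00022) and was at −0.26 ± 0.24 in Ctnnb1 tumours (adjusted p = 0.551), a difference of −2.25 ± 0.38 (adjusted p = 0.00193). Asns, a further ATF4 target, was at 0.14 ± 0.65 in Ctnnb1 tumours and 0.37 ± 0.77 in Ha-ras tumours, and Chac1 fell in Ha-ras tumours (−1.33 ± 0.32, adjusted p = 0.0109). Of 20 genes of PPARalpha and its targets, none rose and 1 fell in Ctnnb1 tumours (none without PB control 6), and 2 rose and 3 fell in Ha-ras tumours. Pdk4, a target that brakes glucose oxidation, was at 1.10 ± 0.41 in Ctnnb1 tumours (adjusted p = 0.0917) and 0.51 ± 0.48 in Ha-ras tumours (adjusted p = 0.565).

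Of the angiopoietin-like genes, Angptl6 fell in both tumour types and Angptl4 was not called. Angptl6 lay between 6.31 and 7.01 in Ctnnb1 tumours with a median of 6.60, against 7.95, 7.20 and 7.87 in PB controls. It was 6.60, 6.33 and 6.73 in Ha-ras tumours, against 8.07, 7.56 and 7.50 in untreated controls. All 10 tumours lay below all 6 control livers. The change was −1.09 ± 0.19 in Ctnnb1 tumours (2.14-fold lower, adjusted p = 0.00166) and −1.16 ± 0.22 in Ha-ras tumours (2.23-fold lower, adjusted p = 0.00204). The difference between these changes was 0.06 ± 0.29 (adjusted p = 0.947), that between the tumour types was 0.02 ± 0.19 (adjusted p = 0.962) and that between the control groups was −0.04 ± 0.22 (adjusted p = 0.96). Angptl6 stayed called in both tumour comparisons without any single array, with adjusted p of at most 0.0135 in Ctnnb1 tumours and 0.0152 in Ha-ras tumours. Angptl4 was 8.07 to 9.90 in Ctnnb1 tumours with a median of 8.98, against 10.09, 9.05 and 8.25 in PB controls. It was 9.42, 9.30 and 9.89 in Ha-ras tumours, against 9.98, 10.20 and 10.16 in untreated controls. The PB controls spread over nearly the whole range of the study, with PB control 6 lowest, and the untreated controls were close together at the top. The change was −0.20 ± 0.36 in Ctnnb1 tumours (adjusted p = 0.776), −0.57 ± 0.43 in Ha-ras tumours (adjusted p = 0.448) and −0.98 ± 0.43 in PB controls against untreated controls (adjusted p = 0.333). Between Ctnnb1 and Ha-ras tumours the log2 difference was −0.61 ± 0.36 (adjusted p = 0.322). The second Angptl4 probe set lay between 2.41 and 2.97, near the lowest values of the arrays, and showed no call.

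Of 10 measured members of the angiopoietin family and its receptors, 1 rose and 2 fell in Ctnnb1 tumours and 1 rose and 1 fell in Ha-ras tumours. Angptl8, an insulin-responsive member of the family, rose in Ha-ras tumours by 2.39 ± 0.34 (adjusted p = 0.000178), and the change in Ctnnb1 tumours differed from this by −2.25 ± 0.44 (adjusted p = 0.00616). Angpt1, a ligand of the receptor TIE2, fell in Ctnnb1 tumours (−0.84 ± 0.14, adjusted p = 0.00119). Of 11 measured genes of the lipoprotein lipase axis, on which ANGPTL4 acts, 1 rose and 4 fell in Ctnnb1 tumours and 4 rose and none fell in Ha-ras tumours. Lpl, the lipase itself, rose in both, by 1.33 ± 0.33 in Ctnnb1 tumours (adjusted p = 0.0155) and by 1.86 ± 0.39 in Ha-ras tumours (adjusted p = 0.00382). Apoc2, the cofactor of the lipase, rose in Ha-ras tumours (1.47 ± 0.16, adjusted p = 1.8e-05), and Apoa5, an activator of the lipase, fell in Ctnnb1 tumours (−1.16 ± 0.24, adjusted p = 0.00541).

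Lect2 moved in opposite directions in the tumour types. Its level in Ctnnb1 tumours ran over 12.82, a median of 13.54 and 13.78, against 11.22, 12.00 and 12.38 in PB controls. In Ha-ras tumours it was 10.32, 9.36 and 10.01, against 11.75, 11.48 and 11.97 in untreated controls. Every Ctnnb1 tumour lay above every control, every Ha-ras tumour lay below every control, and the control groups overlapped. The log2 change was 1.59 ± 0.25 in Ctnnb1 tumours (3.01-fold, adjusted p = 0.00088) and −1.83 ± 0.29 in Ha-ras tumours (3.56-fold lower, adjusted p = 0.000538). The difference between these changes was 3.42 ± 0.39 (adjusted p = 6.07e-05), and the direct difference between the tumour types was 3.55 ± 0.25, an 11.7-fold higher level in Ctnnb1 tumours (adjusted p = 7.1e-08). In PB controls against untreated controls it was 0.13 ± 0.29 (adjusted p = 0.887). In order of the mean, Ctnnb1 tumours at 13.45 ± 0.32 (SD, n = 7) stood above PB controls at 11.86 ± 0.59 and untreated controls at 11.73 ± 0.25, which did not differ beyond their spread, with Ha-ras tumours at 9.90 ± 0.49 last (n = 3 each). Without any single array the adjusted p was at most 0.00724 in Ctnnb1 tumours, 0.00385 in Ha-ras tumours and 0.000362 for the difference.

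Lect2 was part of a list of 23 pericentral genes and beta-catenin targets that, like the other lists, was drawn up with results of these arrays known. Of its 22 measured members, Lect2 included, 11 rose and none fell in Ctnnb1 tumours, with a median change of 1.12, and 1 rose and 8 fell in Ha-ras tumours, with a median of −0.99. Over all genes the medians were −0.03 and −0.04. Without PB control 6, 7 of the 22 were called higher in Ctnnb1 tumours while the median change was larger, at 1.49, and 13 rather than 11 were called higher in the difference between the tumour effects. Lgr5, a receptor that amplifies Wnt signals, rose in Ctnnb1 tumours by 2.57 ± 0.58 (adjusted p = 0.00973), and Cyp7a1, the first enzyme of bile acid synthesis, rose there by 1.62 ± 0.48 (adjusted p = 0.0387) and fell in Ha-ras tumours by −3.13 ± 0.57 (adjusted p = 0.00144). The rise of Cyp7a1 was called in 17 of 27 settings, with changes between 1.17 and 2.36 and adjusted p up to 0.277. Its fall in Ha-ras tumours was called in all 27. Axin2, the feedback target of beta-catenin, rose in Ctnnb1 tumours by 1.27 ± 0.38 (adjusted p = 0.0423), a call made in 8 of 27 settings, with changes between 0.71 and 1.85. Without PB control 6 its change was larger, at 1.49, with an adjusted p of 0.0589. Glul, glutamine synthetase, was at 1.08 ± 0.44 in Ctnnb1 tumours (adjusted p = 0.126) and at −1.34 ± 0.53 in Ha-ras tumours (adjusted p = 0.11). Glul was called in Ctnnb1 tumours in 3 of 27 settings, with a change of 2.34 for its probe set of highest variance. Between the tumour types 19 of the 22 were higher in Ctnnb1 tumours, with 1 lower. Of 7 receptors and partners reported for LECT2, among them the receptor tyrosine kinases MET and TIE1, none passed in Ctnnb1 tumours and 1 was lower in Ha-ras tumours (1 higher and 1 lower without PB control 6).

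**Figure D4:**
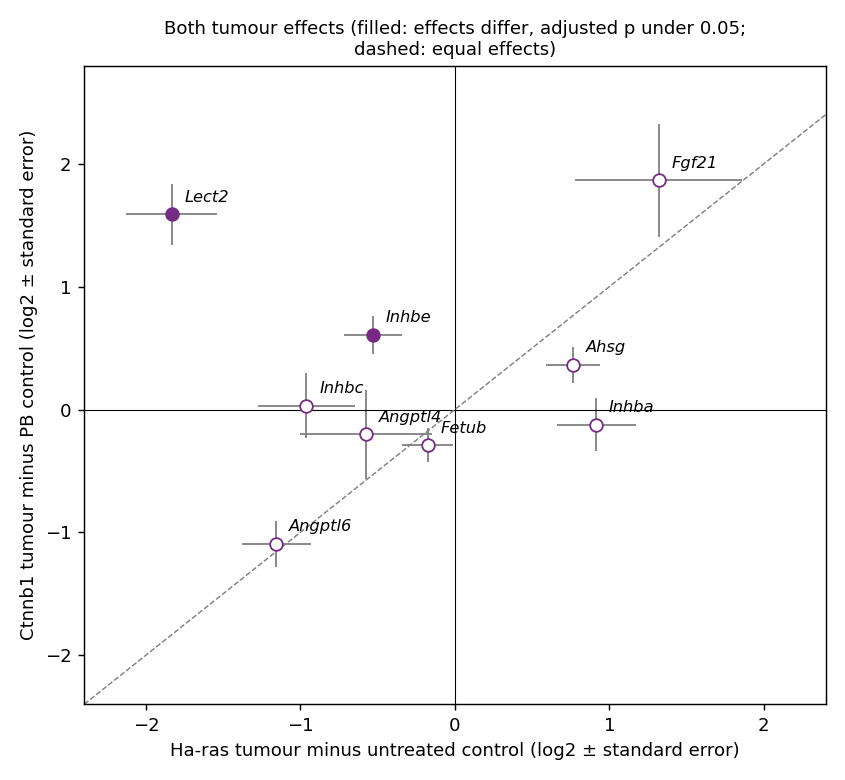
Log2 fold change in Ctnnb1 tumours minus PB controls (vertical) against that in Ha-ras tumours minus untreated controls (horizontal) for the 9 genes, with standard errors and a dashed line of equal change, where filled points are genes whose changes differ at an adjusted p below 0.05. Lect2 and Inhbe are filled and lie above the line at differences of 3.42 and 1.14, and Angptl6 lies on it.

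The fetuin genes Ahsg and Fetub, next to each other on chromosome 16, behaved differently. Ahsg was 13.40 to 13.83 in Ctnnb1 tumours with a median of 13.73, against 13.60, 13.61 and 12.77 in PB controls. It was 14.48, 14.51 and 14.42 in Ha-ras tumours, against 13.68, 13.79 and 13.66 in untreated controls. The Ha-ras tumours lay above all other arrays and close together, and PB control 6 lay below all. Ahsg rose in Ha-ras tumours by 0.76 ± 0.18 (1.70-fold, adjusted p = 0.00777) and was at 0.37 ± 0.15 in Ctnnb1 tumours (adjusted p = 0.122), and the difference between these changes missed the threshold (−0.40 ± 0.23, adjusted p = 0.386). Without PB control 6 the change in Ctnnb1 tumours was 0.09 (adjusted p = 0.697) and the difference was called at −0.68 (adjusted p = 0.0143). Between the tumour types, Ahsg was lower in Ctnnb1 tumours by a log2 difference of −0.78 ± 0.15 (adjusted p = 0.00158). Its values stand near the top of the log2 scale of these arrays, whose highest value was 15.11, where intensities may be compressed; this was not tested. Fetub was 11.01 to 11.61 in Ctnnb1 tumours with a median of 11.25, against 11.43, 11.40 and 11.89 in PB controls. It was 11.48, 11.46 and 11.80 in Ha-ras tumours, against 11.70, 11.68 and 11.88 in untreated controls. These ranges overlapped in both comparisons, with changes of −0.29 ± 0.14 in Ctnnb1 tumours (adjusted p = 0.189) and −0.18 ± 0.16 in Ha-ras tumours (adjusted p = 0.565), the smallest spread between group means of the 9 genes.

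The same stretch of chromosome 16 also holds Hrg, Kng2 and Kng1 after Fetub, all genes of cystatin-like plasma proteins. Kng1, high-molecular-weight kininogen, averaged 14.34 ± 0.01 in Ha-ras tumours against 13.65 ± 0.06 in untreated controls (SD, n = 3 each). It rose there by 0.69 ± 0.10 (adjusted p = 0.00018) and fell in Ctnnb1 tumours by −0.40 ± 0.08 (adjusted p = 0.00556), a difference of −1.09 ± 0.13 (adjusted p = 8.94e-05). Mouse Kng1 and Kng2 are close in sequence, so which of them the probe set reads is uncertain, and Kng2 is not analysed here. Hrg, histidine-rich glycoprotein, was at 0.24 ± 0.11 in Ha-ras tumours (adjusted p = 0.204) and −0.02 ± 0.10 in Ctnnb1 tumours (adjusted p = 0.928). Of the 8 measured genes of this cluster and of the cystatins, 3 rose and none fell in Ha-ras tumours, and 1 rose and 1 fell in Ctnnb1 tumours. Cstb, an intracellular cystatin that inhibits cathepsins, rose in both, by 1.45 ± 0.10 in Ctnnb1 tumours (adjusted p = 2.43e-06) and by 0.81 ± 0.12 in Ha-ras tumours (adjusted p = 0.00022). Of 11 measured partners of the fetuins, 2 rose and 1 fell in Ctnnb1 tumours (none fell without PB control 6) and 1 rose and none fell in Ha-ras tumours, where Mep1b, the protease meprin beta that fetuins inhibit, rose by 2.69 ± 0.47 (adjusted p = 0.00106).

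A wider list of hepatocyte hormones and carriers, which includes 7 of the 9 genes, had 39 measured members. In Ctnnb1 tumours 5 of them rose and 9 fell, and in Ha-ras tumours 6 rose and 9 fell. Beyond the genes above, Lcn2, a siderophore-binding protein, rose in both, by 2.96 ± 0.58 in Ctnnb1 tumours (adjusted p = 0.00407) and 2.64 ± 0.69 in Ha-ras tumours (adjusted p = 0.0167). Hamp, the iron hormone hepcidin, fell in both, by −3.20 ± 0.73 in Ctnnb1 tumours (adjusted p = 0.0102) and −2.86 ± 0.86 in Ha-ras tumours (adjusted p = 0.037), though its probe set may also read the near-identical Hamp2. Igfbp1, a binding protein of insulin-like growth factors, rose in Ha-ras tumours by 3.11 ± 0.24 (adjusted p = 5.77e-07), and Igfals, their acid-labile carrier, fell there by −3.00 ± 0.35 (adjusted p = 3.1e-05). Orm2, an acute phase glycoprotein whose probe set may also read its close copies, fell in Ha-ras tumours by −2.76 ± 0.84 (adjusted p = 0.0383), and the difference between the tumour effects was 4.74 ± 1.10 (adjusted p = 0.0175). In PB controls against untreated controls Inhbe was the only one of the 39 called.

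Likeness of pattern was measured by Pearson's r over the 16 arrays among genes at or above the median level. It is a description over arrays that fall into 4 groups, and the share of the group means in each r was not measured. For Lect2 the closest genes were Fam107b (r = 0.980), Tbx3 (0.965) and Ugt2b34 (0.965). For Angptl6 they were Ifitm1 (0.967), 1700001C19Rik (0.948) and Gdf2 (0.945), the last encoding BMP9. For Inhba they were Pld1 (0.947), Acsl5 (0.936) and Cfi (0.932), and for Ahsg Golga7 (0.949), Rab6a (0.948) and Prorsd1 (0.947). Fgf21 was closest to Hmgb3 (0.910), Jun (0.897) and Rras (0.895), Inhbc to Nox4 (0.927), Tprkb (0.918) and Adi1 (0.917), and Fetub to Zcchc24 (0.896), Psmd9 (0.895) and Slc37a4 (0.878). Angptl4, with Rab30 (0.838), Parp16 (0.832) and Tmem123 (0.804), and Inhbe, with Wnk2 (0.749), Cep126 (0.727) and Cpox (0.671), had the least similar nearest genes. None of these nearest genes was itself one of the 9.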

How the data were processed

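The deposited log2 values were made by the authors with RMA in R 2.14.1, per the submitters' processing notes. They cover 45101 probe sets on 16 arrays and were used without further scaling. Of these, 34945 had 1 gene symbol in the platform annotation, and each gene was represented by its brightest probe set on average, which gave 18193 genes. A linear model with a mean for each group was fitted to all 16 arrays by lmFit and eBayes of limma 3.58.1 (R 4.3.3) for 5 comparisons, each with Benjamini-Hochberg adjustment over all genes and a threshold of 0.05. Fold changes are log2 differences, first group minus second. Alternatives covered the arrays in the fit, probe set choice, scaling, dim genes, the spread estimate, replicate numbers and single arrays. Replicate numbers were not used to pair samples in the main fit. The hepatokine genes and gene lists were chosen with earlier results of these data known. Named genes followed a written rule (all hepatokine genes, their relatives and receptors, up to 4 called genes per list by size of change and up to 2 against it, and 3 nearest genes by correlation), and the choice among them was made with their values in view. Promoter windows came from RefSeq (GRCm38.p6). The fits were tested on simulated data.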

Additional observations from a re-analysis of the deposited data

Results flagged for a closer look

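The change of Lect2 in Ctnnb1 tumours against PB controls and in Ha-ras tumours against untreated controls differed by 3.42 on the log2 scale in a test of the difference itself, with all tumours of one type above and all of the other below every control. For Inhbe the changes differed by 1.14 in the same test, with similar levels in both tumour types and control groups that did not overlap. Within the 7 Ctnnb1 tumours, Ahsg was lowest in tumour 1 at 13.40, farther from the next tumour than Dixon's test allows for a group of 7. Such a test was made for 9 genes, and chance alone marks about 1 group in 20.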

How the results depend on the processing

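Over 27 settings and 1197 values of the 9 hepatokine genes, 1152 kept their side of the threshold, 18 lost a call, 27 gained one and 0 reversed. Lect2 and Angptl6 kept every call in the tumour comparisons. The count of genes called in Ha-ras tumours was 4 and rose to 7 when only the arrays compared were fitted, where Inhbc, Fgf21 and Inhbe joined and 14.7% of all genes were called. The count for PB controls against untreated controls was 1 and fell to 0 with only the arrays compared (0.104% of all genes). It ranged from 0 to 1 when single arrays were left out (0.0165% to 0.374% of all genes). The count for the difference between the tumour effects was 2, and 5 without PB control 6 and Ctnnb1 tumours 6 and 7 together (7.35% of all genes). When single arrays were left out it ranged from 2 to 4 (3.56% to 6.47% of all genes). The 4 came without PB control 6, where 4.93% of all genes were called. With the replicate number as a block, Lect2 was the 1 gene called in that difference (3.26, adjusted p = 0.00777, with 3.73% of all genes called), and Inhbe lost its call (1.19, adjusted p = 0.0787). The count between Ctnnb1 and Ha-ras tumours was 3, and 5 both under the replicate block (9.17% of all genes) and for the same arrays without it (11.2%). Angptl4 joined at −1.13 (adjusted p = 0.00784 with the block and 0.0193 without it). Inhbc joined at 0.85 (adjusted p = 0.0288 with the block and 0.0250 without it). Same-numbered samples had deviations correlated at −0.20 to 0.40. For Ha-ras tumours and untreated controls these were 0.03, 0.40 and 0.24, against −0.32 to 0.07 for samples with different numbers. In the other comparisons same-numbered pairs lay within the range of the rest. Whether a shared number links samples is therefore not settled. Under the block Inhbe lost its call in Ctnnb1 tumours (0.66, adjusted p = 0.130), as it did in the same arrays without it (adjusted p = 0.0782). The control groups share no number, so no paired analysis of them was possible. The causes of these shifts were not tested. The block kept only samples with a shared number, which for Ctnnb1 tumours against PB controls were tumours 4, 5 and 6. All genes called in Ctnnb1 tumours numbered 2192 in the main fit. They numbered 908 for the arrays with a shared number without the block, and 804 with it. The number of arrays and signal near background limit what low genes can show.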
